A study of Mus musculus with 4 samples.

Results

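The 31 genes described here encode enzymes and regulators of cholesterol and fatty acid synthesis, and were matched by exact symbol among the 53379 genes of the files. RNA was sequenced from DKO741, a line of mouse embryonic stem cells (mESCs) derived from E14, in which both alleles of the telomerase RNA gene had been disrupted (*Terc*-/-). Pre-ALT cells at PD100 and post-ALT cells at PD800 were compared, with 2 libraries of each, where PD is the population doubling (called passage in part of the labels) and ALT the alternative lengthening of telomeres. Both groups lack telomerase RNA, both come from this 1 targeted line, which yields survivors only rarely, and both were freed of feeder cells before extraction. The methods call the duplicates biological, but no label says that they came from separate cultures, so the p-values measure only the spread between these libraries. The total expected count, RSEM's estimate of the read pairs of all genes, was between 32454121 and 38492149 per library. The expected count of *Terc* was 1 in the first PD100 library and 0 in each of the others. Of 10 markers of pluripotent cells, 5 passed the test and were higher in PD800 cells (edgeR's quasi-likelihood test, adjusted p under 0.01). This was 50%, against 13.1% of all tested genes. The 10 markers summed to 2202 to 2523 CPM at PD100 and 4052 to 4168 CPM at PD800 (CPM gives counts relative to TMM-scaled library sizes). Of 14 markers of primitive and visceral endoderm, 11 had enough counts for a test and 10 of these were lower (90.9%, against 15.4% of all tested genes). Their sum was 1832 to 2079 CPM at PD100 and 157 to 165 CPM at PD800, with *Afp* and *Ttr* at 0 in both PD800 libraries. Fibroblast markers summed to 422 to 432 CPM at PD100 and 247 to 294 CPM at PD800. Of 9 tested fibroblast markers 6 were lower (66.7%, against 15.4% of all tested genes), and *Lum* was at 0 in both PD100 libraries. The part of these other cell types in the results below was not tested, and in bulk RNA fewer cells of a type cannot be told apart from less RNA per cell.

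Cells build cholesterol from acetyl-CoA through mevalonate, farnesyl diphosphate, squalene and lanosterol, and build fatty acids from acetyl-CoA by carboxylation, elongation and desaturation. SREBP transcription factors, encoded by *Srebf1* and *Srebf2*, are held in the endoplasmic reticulum as precursors. When sterols are low, the escort protein Scap carries them to the Golgi, where proteases release the active factor, and Insig proteins retain Scap when sterols are high. SREBP-2 acts mainly on cholesterol genes and SREBP-1 mainly on fatty acid genes. *Insig1* and many of the enzyme genes are SREBP targets themselves.

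The promoters of *Hmgcs1*, *Insig1*, *Mvd* and *Elovl6* are shown because their genes stand for the main patterns below. *Hmgcs1* carries a sterol element and did not pass the test, *Insig1* had the largest fall, *Mvd* fell as its chromosomal neighbours did, and *Elovl6* rose. They are RefSeq sequences of GRCm38.p6, written 5′ to 3′ on the gene's strand, and bases annotated as untranslated were left out. Capitals mark matches on either strand to TCACNCCAC, the core of a sterol regulatory element, and to CCAAT, the box bound by NF-Y. The first is *Hmgcs1*, plus strand, chr13:119690101-119690350, ending at the base before the RefSeq start.
Hmgcs1: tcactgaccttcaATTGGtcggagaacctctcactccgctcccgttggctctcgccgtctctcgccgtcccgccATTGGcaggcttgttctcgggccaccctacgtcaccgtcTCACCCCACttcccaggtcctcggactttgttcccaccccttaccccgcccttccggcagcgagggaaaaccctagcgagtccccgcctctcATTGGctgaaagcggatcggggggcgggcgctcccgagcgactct
Insig1 (plus strand, chr5:28071162-28071362, ending 50 bases before its start): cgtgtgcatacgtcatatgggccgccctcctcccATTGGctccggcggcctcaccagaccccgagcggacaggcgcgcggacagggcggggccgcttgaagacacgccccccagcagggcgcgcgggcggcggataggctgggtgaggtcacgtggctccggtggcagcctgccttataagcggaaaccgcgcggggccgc
Mvd (minus strand, chr8:122443423-122443672, ending at the base before its start): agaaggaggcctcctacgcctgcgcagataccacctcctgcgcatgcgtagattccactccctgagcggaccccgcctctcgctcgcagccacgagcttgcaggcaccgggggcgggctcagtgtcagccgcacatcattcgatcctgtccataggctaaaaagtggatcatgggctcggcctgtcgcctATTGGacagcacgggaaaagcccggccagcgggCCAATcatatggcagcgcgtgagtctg
Elovl6 (plus strand, chr3:129532136-129532354, ending 32 bases before its start): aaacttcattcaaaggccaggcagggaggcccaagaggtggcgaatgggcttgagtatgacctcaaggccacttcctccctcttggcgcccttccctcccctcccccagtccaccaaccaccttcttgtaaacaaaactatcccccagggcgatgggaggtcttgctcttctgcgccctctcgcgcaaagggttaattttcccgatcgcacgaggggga
Promoter windows of 300 bases, from 250 before to 50 after a RefSeq start, were found for 24 of the 31 genes. The sterol element core was present in 1 of the 24, *Hmgcs1*, where it begins 137 bases before the start. It was present in 1.49% of the tested genes with a window and in 1.24% of all 32851 windows. CCAAT was found in 19 of the 24 genes (79.2%, against 42.7% of the tested genes with a window). Since a gene may have several windows, this was 62.5% of the 32 windows of these genes, against 37.4% of all windows. The GC box GGGCGG was found in 21 genes (87.5%, against 65.8% of tested genes) and in 78.1% of their windows (against 35.7%). The E-box CANNTG was found in 17 genes (70.8%, against 68.6% of tested genes) and in 78.1% of their windows (against 72.3%). Both strands were searched, matches of different motifs may overlap, and other spellings of the sterol element were not searched. A match describes the letters only.

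Of the 31 synthesis genes, 15 fell in PD800 cells, 1 rose and 15 did not pass the test. Of the falls, that of *Insig1* was over 2-fold in CPM. On the TPM scale those of *Idi1*, *Msmo1*, *Fdft1* and *Fdps* were too, so that limma on log2(TPM + 1) gave 5 falls over 2-fold. With edgeR and an adjusted p under 0.01, 15 of the 31 genes were lower (48.4%), against a background of 15.4% lower among all 19148 tested genes and 18.4% lower among tested genes whose mean level reached 5 CPM. A single gene, *Elovl6*, was higher (3.23%, against 13.1% of all tested genes). All 31 had enough counts for a test, with 214 to 23220 counts per library. The median log2 fold change of PD800 over PD100 was -0.40 over the 31 genes and 0.01 over all tested genes, and the single values ran from -1.21 to 1.49. In 22 genes both PD800 libraries lay below both PD100 libraries (71%, against 36.3% of all tested genes), and in 3 both lay above (against 37.4%). On the log2(TPM + 1) scale, limma gave 10 lower and 1 higher of the 31, against 2327 lower and 712 higher of all tested genes. At an additional fold change over 2, *Elovl6* (higher, against 6.28% of all tested genes) and *Insig1* (lower, against 8.81%) were called. The count of lower genes depended on the PD800 libraries. It was far smaller when either PD800 library was left out, where the lone PD800 library was assumed to vary like the PD100 pair. It was larger when either PD100 library was left out. The counts of all tested genes also moved between these 4 fits, and the shares of 48.4% and 15.4% are those with all 4 libraries. Median log2 fold changes lay between -0.54 and -0.34 for the 31 genes in these 4 fits, and between -0.0035 and 0.013 for all tested genes.

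**Figure D1:**
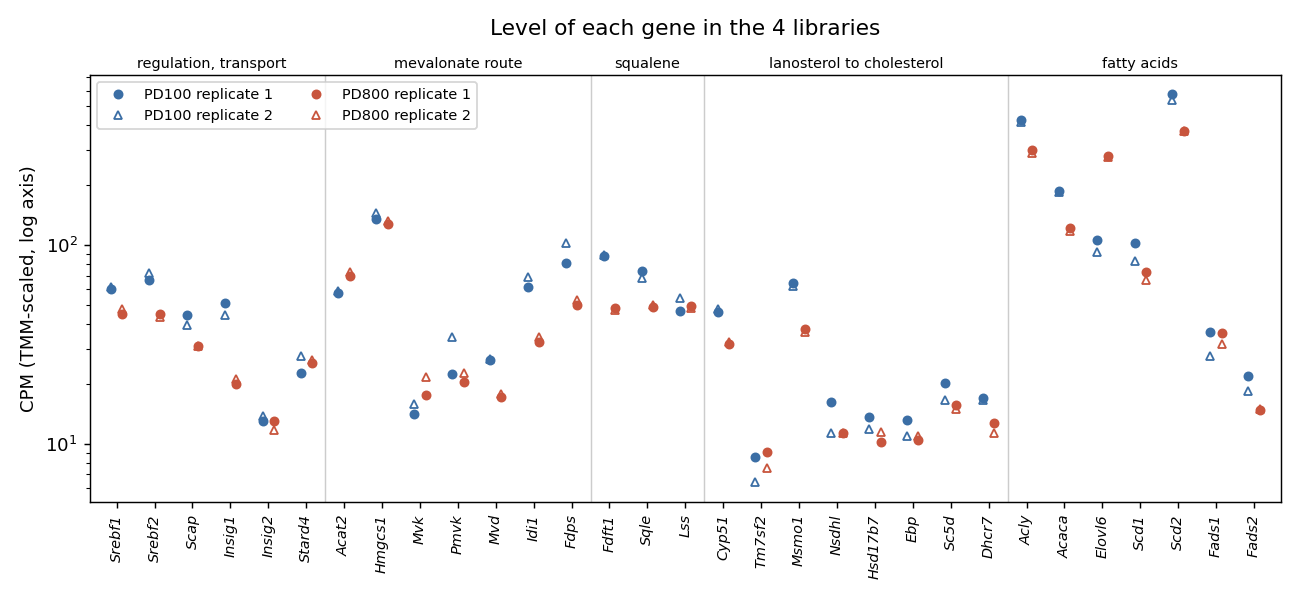
Level of each of the 31 genes in CPM (counts relative to TMM-scaled library sizes, log axis) in PD100 (blue) and PD800 (red) libraries, with filled circles for replicate 1 and open triangles for replicate 2. Genes are ordered by role, and in 22 of the 31 genes both PD800 points lie below both PD100 points.

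Among the regulators, all 5 had negative log2 fold changes, against 9442 of all 19148 tested genes. Of the 5, 4 passed as lower (80%, against 15.4% of all tested genes). *Srebf2*, the main cholesterol factor, was at 66.3 and 72.0 CPM in PD100 libraries and at 45.1 and 43.6 CPM in PD800 libraries. It fell by 0.64 on the log2 scale (SE 0.08, adjusted p = 0.00154, edgeR). *Srebf1*, the main fatty acid factor, was at 59.97 and 61.6 CPM and then at 44.8 and 47.9 CPM, a log2 fold change of -0.39 ± 0.08 (SE, adjusted p = 0.00848, edgeR). Neither pair of groups overlapped, and both falls were larger than the spread between replicates. *Scap* was at 44.5 and 39.5 CPM at PD100 and at 31.2 and 31 CPM at PD800 (log2 fold change -0.43, standard error 0.09, adjusted p = 0.00956, edgeR). *Insig1*, which retains Scap, had the largest fall of the 31 genes. It was at 51.1 and 44.3 CPM at PD100 and at 20.0 and 21.3 CPM at PD800, a log2 fold change of -1.21 ± 0.10 (SE, adjusted p = 0.000338, edgeR), or 2.31-fold lower. *Insig2*, its paralogue, was at 13.0 and 13.8 CPM and at 13.1 and 11.8 CPM, so that the groups overlapped (log2 fold change -0.11, standard error 0.10, adjusted p = 0.415, edgeR). *Stard4*, a carrier of cholesterol between membranes and an SREBP target, also overlapped between groups, at 22.6 and 27.7 CPM and at 25.6 and 26.4 CPM (log2 fold change 0.05, standard error 0.11, adjusted p = 0.762, edgeR). The calls of *Srebf1* and *Scap* lay near the threshold. With limma on log2(TPM + 1), their log2 fold changes were -0.50 and -0.45 with adjusted p = 0.0152 and 0.135. *Srebf1*, *Srebf2* and *Scap* also missed 0.01 when either PD800 library was left out (adjusted p from 0.0221 to 0.175, edgeR), with log2 fold changes from -0.66 to -0.34.

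In the mevalonate part of the route, from acetyl-CoA to farnesyl diphosphate, 3 of 7 genes fell (42.9%, against 15.4% of all tested genes). They were the last in order. *Idi1*, which interconverts the isopentenyl and dimethylallyl building blocks, was at 61.8 and 68.7 CPM at PD100 and at 32.5 and 34.4 CPM at PD800. It fell by 0.96 on the log2 scale (SE 0.09, adjusted p = 0.000501, edgeR). *Fdps*, farnesyl diphosphate synthase, was at 80.9 and 103 CPM and then at 50.1 and 52.7 CPM (log2 fold change -0.83, standard error 0.12, adjusted p = 0.00297, edgeR). *Mvd*, the decarboxylase of this route, was at 26.3 and 26.7 CPM and then at 17.2 and 17.8 CPM (log2 fold change -0.60, standard error 0.08, adjusted p = 0.00189, edgeR). In all 3 the groups were apart. *Mvd* and *Fdps* missed 0.01 when either PD800 library was left out (adjusted p from 0.0102 to 0.0293, edgeR). None of the 4 earlier enzymes passed the test. *Acat2*, which joins acetyl-CoA units, was at 57.1 and 58.5 CPM at PD100 and at 69.5 and 73.5 CPM at PD800 (log2 fold change 0.31, standard error 0.07, adjusted p = 0.0182, edgeR). *Hmgcs1*, HMG-CoA synthase, whose promoter holds the sterol element above, was at 135 and 145 CPM and at 128 and 132 CPM (log2 fold change -0.11, standard error 0.08, adjusted p = 0.297, edgeR). *Mvk*, mevalonate kinase, was at 14.2 and 15.9 CPM and at 17.6 and 21.7 CPM (log2 fold change 0.39, standard error 0.13, adjusted p = 0.0524, edgeR). *Acat2* and *Mvk* thus lay above the PD100 libraries in both PD800 libraries without passing 0.01. *Pmvk*, phosphomevalonate kinase, differed most between the PD100 libraries, at 22.5 and 34.6 CPM, and was at 20.3 and 22.8 CPM at PD800 (log2 fold change -0.40, standard error 0.20, adjusted p = 0.153, edgeR).

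Of the 3 squalene and lanosterol steps, 2 fell (66.7%, against 15.4% of all tested genes), and the cyclase did not pass the test. *Fdft1*, squalene synthase, was at 88.0 and 88.8 CPM at PD100 and at 48.1 and 47.2 CPM at PD800. Its log2 fold change was -0.89 ± 0.07 (SE, adjusted p = 0.000311, edgeR), 1.85-fold lower. *Sqle*, squalene epoxidase, was at 73.8 and 68.0 CPM and then at 48.7 and 50.04 CPM (log2 fold change -0.52, standard error 0.08, adjusted p = 0.00318, edgeR). *Sqle* missed 0.01 when either PD800 library was left out (adjusted p = 0.0628 and 0.0445, edgeR) and with limma on log2(TPM + 1) (adjusted p = 0.0104). *Lss*, lanosterol synthase, had overlapping groups, at 46.7 and 54.4 CPM and at 49.3 and 48.3 CPM (log2 fold change -0.05, standard error 0.10, adjusted p = 0.707, edgeR).

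Of the 8 enzymes after lanosterol, 3 fell (37.5%, against 15.4% of all tested genes) and the others did not pass the test. *Msmo1*, the sterol C4 methyl oxidase, was at 64.1 and 62.5 CPM at PD100 and at 37.6 and 36.3 CPM at PD800 (log2 fold change -0.78, standard error 0.07, adjusted p = 0.000579, edgeR). *Cyp51*, lanosterol demethylase, was at 46.0 and 47.7 CPM and then at 31.6 and 32.6 CPM (log2 fold change -0.54, standard error 0.07, adjusted p = 0.00219, edgeR). *Dhcr7*, which makes cholesterol from 7-dehydrocholesterol, was at 17.0 and 16.6 CPM and then at 12.8 and 11.3 CPM (log2 fold change -0.48, standard error 0.10, adjusted p = 0.00981, edgeR). The *Dhcr7* call was the closest to the threshold, and DESeq2's Wald test gave -0.49 with an adjusted p of 0.0113. Of 13 alternative fits, the *Dhcr7* call was lost in 6, with adjusted p up to 0.112 (edgeR, without PD800 replicate 2), and that of *Cyp51* in 4, with adjusted p up to 0.0522 (edgeR, without PD800 replicate 1). The *Msmo1* call was lost in 1, without PD800 replicate 2 (adjusted p = 0.0108, edgeR). The low-level enzymes *Nsdhl*, *Hsd17b7*, *Ebp* and *Sc5d* had log2 fold changes from -0.29 to -0.17 with standard errors from 0.12 to 0.17. In each of these 4 both PD800 libraries lay below both PD100 libraries, but the PD100 replicates themselves differed by 1.15 to 1.42-fold. *Tm7sf2*, a sterol reductase, was the lowest-counted of the 31 genes, at 8.55 and 6.40 CPM and at 9.03 and 7.53 CPM (log2 fold change 0.14, standard error 0.18).

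Of the 7 fatty acid genes, *Elovl6* rose (14.3%, against 13.1% of all tested genes), while 3 fell (42.9%, against 15.4%). *Elovl6*, the elongase that extends palmitate to stearate, was at 106 and 92.8 CPM at PD100 and at 282 and 276 CPM at PD800. This is a log2 fold change of 1.49 ± 0.09 (SE, adjusted p = 0.000142, edgeR), 2.80-fold higher. It moved from rank 15 to rank 3 of the 31 genes in TPM, the scale that corrects for transcript length. *Acly*, which makes cytosolic acetyl-CoA from citrate, was at 426 and 414 CPM and then at 300 and 291 CPM (log2 fold change -0.51, standard error 0.08, adjusted p = 0.00314, edgeR). *Acaca*, acetyl-CoA carboxylase, was at 187 and 186 CPM and then at 122 and 117 CPM (log2 fold change -0.64, standard error 0.07, adjusted p = 0.000966, edgeR). The groups were well apart in both. The stearoyl-CoA desaturases *Scd1* and *Scd2* introduce the double bond of oleate. *Scd2* was at 575 and 537 CPM and then at 374 and 376 CPM (log2 fold change -0.57, standard error 0.08, adjusted p = 0.00260, edgeR). *Scd1* was at 102 and 82.9 CPM and then at 73.4 and 67.0 CPM, a log2 fold change of -0.40 that did not pass (standard error 0.12, adjusted p = 0.0354, edgeR). The pair are close paralogues, and their expected counts were not whole, so that some reads were divided between genes. *Fads1* and *Fads2*, the desaturases of polyunsaturated fatty acids, lie side by side on chromosome 19. *Fads2* was at 22.03 and 18.4 CPM and then at 14.8 and 14.9 CPM (log2 fold change -0.45, standard error 0.11, adjusted p = 0.0190, edgeR). *Fads1* overlapped between groups, at 36.4 and 27.5 CPM and at 36.0 and 31.8 CPM (log2 fold change 0.08, standard error 0.15, adjusted p = 0.682, edgeR). The *Acly*, *Acaca* and *Scd2* calls did not hold when either PD800 library was left out (adjusted p from 0.0180 to 0.0808, edgeR, with log2 fold changes from -0.66 to -0.48).

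Several of these genes moved with the genes around them. For each gene the median log2 fold change of its 40 nearest tested genes on the same chromosome was taken as a neighbourhood value. On chromosome 11, *Srebf1* (-0.39) lay beside neighbours at -0.37, *Acly* (-0.51) beside neighbours at -0.47 and *Acaca* (-0.64) beside neighbours at -0.67, and the median of the 1449 other tested genes of the chromosome was -0.25. On chromosome 19, where the other 561 tested genes had a median of -0.38, *Scd1* (-0.40), *Scd2* (-0.57) and *Fads2* (-0.45) lay beside neighbours at -0.43, -0.41 and -0.49. *Mvd* (-0.60), on chromosome 8, had neighbours at -0.48. Of the genes that passed as lower, *Srebf1*, *Mvd*, *Acly* and *Acaca* thus lay within 0.15 of their neighbours, and *Scd2* lay 0.16 below its own. The other 10 lay further below. *Insig1* lay 1.42 below its neighbours on the log2 scale, *Idi1* 1.05, *Fdps* 0.82, *Dhcr7* 0.68, *Fdft1* 0.63, *Scap* 0.55, *Cyp51* 0.45, *Srebf2* 0.42, *Msmo1* 0.38 and *Sqle* 0.32. *Hmgcs1* (-0.11) and *Stard4* (0.05) did not pass the test against 0, but their neighbours were at 0.45 and 0.68. *Elovl6* lay 1.15 above its neighbours, which were at 0.34. Over the 31 genes the median was -0.40 before and -0.14 after the neighbourhood value was taken off, with 22 genes below and 9 above their neighbours. Differences from the neighbours carry no test, and the part of the neighbourhood in the changes was not tested.

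**Figure D2:**
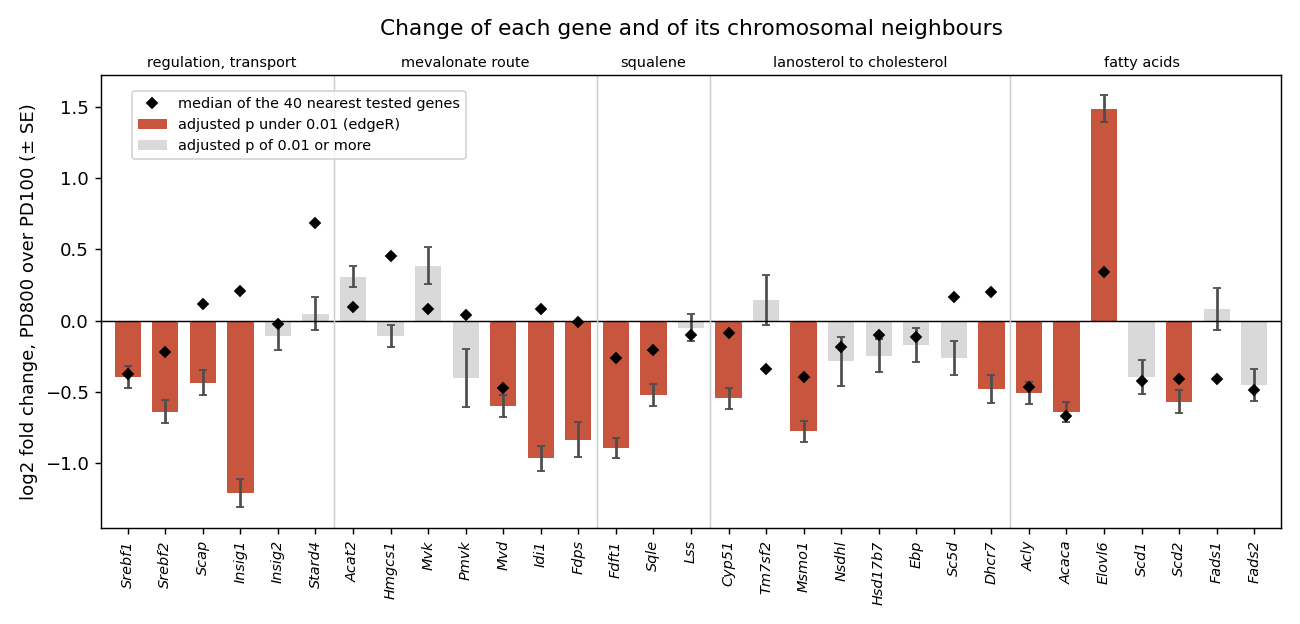
Bars give for each gene the edgeR log2 fold change, PD800 over PD100, with the standard error as whiskers, red at an adjusted p under 0.01 and grey otherwise. Black diamonds give the median log2 fold change of the 40 nearest tested genes: they coincide with *Srebf1*, *Acly*, *Acaca*, *Scd1* and *Fads2*, and lie far above *Insig1*, *Idi1* and *Fdps*.

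Per transcript length, *Acly* was the most abundant of the 31 genes in both groups, at 89.8 ± 1.46 TPM (SD, n = 2) at PD100 and 55.8 ± 2.14 TPM (SD, n = 2) at PD800. *Scd2* followed, at 77.9 ± 9.30 and 44.4 ± 1.57 TPM (SD, n = 2 each). At PD100 *Fdps* came next, at 63.1 ± 6.20 TPM, and at PD800 *Elovl6* did, at 34.0 ± 2.40 TPM, with *Fdps* at 29.6 ± 0.233 TPM (SD, n = 2 each). *Hsd17b7*, a reductase in the removal of the C4 methyl groups, was the least abundant in both groups, at 3.90 ± 0.354 and 2.23 ± 0.0495 TPM (SD, n = 2 each). The 18 enzymes from acetyl-CoA to cholesterol summed to 306 ± 5.76 TPM at PD100 and 188 ± 4.02 TPM at PD800 (SD, n = 2 each), a ratio of 0.615. In CPM the same sums were 826 ± 29.5 and 629 ± 11.9 (SD, n = 2 each), a ratio of 0.761. The median of all tested genes was -0.12 on the log2(TPM + 1) scale and 0.01 in edgeR's fit, and what else separates the scales was not tested. Mitochondrial transcripts took 11.01% to 15.4% of the counts at PD100 and 16.0% to 17.7% at PD800. The signs of *Tm7sf2*, *Stard4* and *Fads1*, none of which passed the test, turned negative on the TPM scale. The 7 fatty acid genes summed to 239 ± 22.9 TPM at PD100 and to 170 ± 9.16 TPM at PD800 (SD, n = 2 each). In 18 genes every expected count was whole, and in 13 some were not. Exons of 11 genes overlap those of another annotated gene, among them *Fdps* with *Gm43738* over 1124 bases and *Tm7sf2* with *Vps51* over 532 bases, both on the same strand, and *Fdft1* with *Ctsb* over 774 bases on opposite strands, and the strand setting of the counting is not given in the sources used here. Their counts are uncertain to that extent.

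Genes that process SREBP precursors or take part in sterol-regulated degradation had 4 of 10 tested genes lower (40%, against 15.4% of all tested genes) and 0 higher, with a median of -0.10. For the higher direction DESeq2's Wald test also gave 0, and 1 gene had an unadjusted p under 0.05 in edgeR's test. The lower count was smaller when either PD800 library was left out, and the higher count was larger without PD100 replicate 1. The counts of all tested genes also moved between such fits. *Erlin1*, which binds cholesterol in the endoplasmic reticulum, was at 24.9 and 21.6 CPM and then at 13.7 and 12.4 CPM (log2 fold change -0.83, standard error 0.11, adjusted p = 0.00193, edgeR). The neighbours of *Erlin1* were at -0.40. Of 15 genes of sterol uptake, storage and export and of the oxysterol receptors LXR, 6 were lower (40%, against 15.4% of all tested genes). The 2 that were higher were 13.3% of the list, near the 13.1% of all tested genes. Both counts were smaller when either PD800 library was left out, and those of all tested genes also moved between such fits. The median was -0.18. *Soat1*, which esterifies cholesterol for storage, was at 125 and 111 CPM and then at 38.3 and 37.3 CPM (log2 fold change -1.65, standard error 0.09, adjusted p = 9.54e-05, edgeR). *Vldlr*, a lipoprotein receptor, was at 4.01 and 5.27 CPM and then at 1.36 and 1.52 CPM (log2 fold change -1.68, standard error 0.21, adjusted p = 0.00166, edgeR). The 2 higher genes encode sterol exporters. *Abcg1* was at 13.1 and 12.6 CPM and then at 28.5 and 24.2 CPM (log2 fold change 1.03, standard error 0.11, adjusted p = 0.000793, edgeR). *Abca1* was at 40.7 and 41.5 CPM and then at 58.7 and 58.0 CPM (log2 fold change 0.50, standard error 0.07, adjusted p = 0.00259, edgeR). The neighbours of *Soat1*, *Vldlr*, *Abcg1* and *Abca1* were at -0.30, -0.44, 0.08 and 0.23.

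Other genes of fatty acid supply, elongation and activation had 5 of 24 lower (20.8%, against 15.4% of all tested genes) and 2 higher (8.33%, against 13.1%), with a median of -0.28. Both shares lay near those of all tested genes. The lower count was smaller without either PD800 library, and both counts were larger without either PD100 library. Those of all tested genes also moved between such fits. *Acss2*, which makes acetyl-CoA from acetate and is a known SREBP target, rose with *Elovl6*. It was at 4.88 and 5.09 CPM at PD100 and at 13.998 and 14.6 CPM at PD800 (log2 fold change 1.52, standard error 0.10, adjusted p = 0.000170, edgeR). *Elovl7*, another elongase, was at 4.01 and 4.43 CPM and then at 9.76 and 10.1 CPM (log2 fold change 1.23, standard error 0.12, adjusted p = 0.000596, edgeR). *Acsl5*, which activates long-chain fatty acids, was at 52.0 and 54.8 CPM and then at 13.6 and 12.5 CPM (log2 fold change -2.04, standard error 0.09, adjusted p = 5.55e-05, edgeR). *Mlxipl*, the carbohydrate-responsive factor of lipid synthesis genes, was at 4.58 and 3.23 CPM and then at 1.75 and 1.59 CPM (log2 fold change -1.23, standard error 0.23, adjusted p = 0.00753, edgeR). In all 4 the groups were apart. The neighbours of *Acss2*, *Elovl7*, *Acsl5* and *Mlxipl* were at 0.16, 0.34, -0.51 and 0.30.

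**Figure D3:**
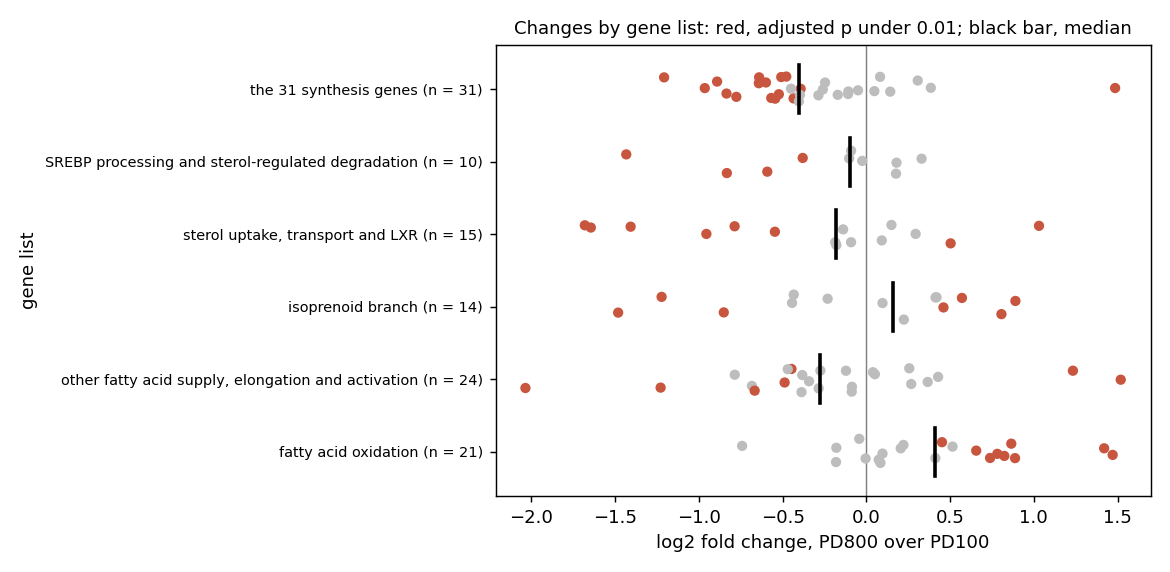
Each point is the log2 fold change of PD800 over PD100 of a gene by edgeR, in red at an adjusted p under 0.01 and in grey otherwise, with a black bar at the median of each list. The median of the 31 synthesis genes is -0.40, and that of the fatty acid oxidation list is 0.41.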

How the data were processed

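RNA of 4 libraries of DKO741 mESCs was analysed. The authors aligned 101 bp paired-end reads to mm10 with STAR 2.5.3a and deposited the expected count and the TPM of each gene from RSEM 1.3.0. The deposited expected counts are not scaled for depth, and the deposited TPM values are scaled for length and to the same total. The annotation release is not given in the sources used here. Gene coordinates came from GENCODE M21 (GRCm38, the same assembly), in which 53274 of the 53379 gene identifiers were found, and promoters from RefSeq on GRCm38.p6.

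Expected counts were rounded to whole numbers. Genes were kept by filterByExpr at its default minimum of 10 counts, scaled by TMM and tested by the quasi-likelihood method of edgeR 4.0.16 under R 4.3.3, with Benjamini-Hochberg adjustment over the 19148 genes kept. A gene passed at an adjusted p under 0.01. The study's own tool, DESeq2, was run as an alternative in version 1.42.0, and limma 3.58.1 on log2(TPM + 1) and log2(TPM + 0.1). Other normalisations, filters and thresholds, a replicate block, and leaving out each library in turn were also tried. An exact permutation test of 2 libraries against 2 cannot give a two-sided p below 0.333, and the edgeR p-values borrow their spread from all genes. The 3-count floor lay between 0.0743 and 0.0933 CPM, far below all 31 genes, and covers counting error only. Replicates differed by more than sampling noise (chi-square per degree of freedom 64.1 at PD100 and 9.74 at PD800). On data simulated for this comparison over 19148 genes, 79% of 200 genes changed by 2-fold were recovered and 2% of 200 changed by 1.5-fold. The 31 genes and all lists were chosen with earlier results of these data known. Full values were given for the 5 regulators, *Scd1*, *Scd2*, *Fads1*, *Fads2*, the most changed of the 31 genes that passed, and up to 2 genes in each direction of the other lists, of which 1 gene is not reported here. Values of the remaining genes among the 31 were added as an account of each, and neighbourhood values after the data had been seen.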

Additional observations from a re-analysis of the deposited data

How the results depend on the processing

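*Insig1*, *Idi1*, *Fdft1* and *Elovl6* kept their direction and their side of the threshold in all 13 alternative fits. Over all 31 genes, 336 gene values kept both, 36 no longer passed, 20 passed anew and 11 reversed, none of which had passed. Among the 31 genes, the count that rose was 3 without an expression filter and 2 at an adjusted p under 0.05. The count that fell was 10 and 11 when limma was run on log2(TPM + 1) or with 0.1 in place of 1, of which 5 fell over 2-fold on either scale. The median was -0.58 and -0.64 there, where the median of all tested genes was -0.12 and -0.21. The edgeR median of -0.40 became -0.14 once neighbours were taken off. With the same replicate numbers as a block, 3 genes rose and 17 fell, against 3854 and 4125 of all tested genes. *Acat2* and *Mvk* (higher) and *Scd1* and *Fads2* (lower) passed there and not without the block, and no call among the 31 was lost. Same-numbered libraries correlated in their deviations (0.265), but with 2 pairs the numbers were not shown to pair the libraries. Of all tested genes, 3991 rose and 4409 fell without a filter, and 4224 rose and 4515 fell at an adjusted p under 0.05. With limma 712 rose and 2327 fell (297 and 920 over 2-fold) on the first scale, and 706 and 2410 (533 and 1779 over 2-fold) on the second. *Tm7sf2*, *Stard4* and *Fads1* reversed to -0.15, -0.11 and -0.13 on the first scale and to -0.17, -0.14 and -0.14 on the second. Without single libraries, 3 to 19 of the 31 genes fell (1 to 2 of them over 2-fold), 1 to 3 rose, and the median ran from -0.54 to -0.34. Of all tested genes 1257 to 4079 rose and 1567 to 4223 fell. *Lss* ran from -0.15 to 0.041, *Tm7sf2* from -0.068 to 0.38, *Stard4* from -0.091 to 0.18 and *Fads1* from -0.13 to 0.30. The cause of these changes was not tested. Of 200 genes simulated with a 1.5-fold change among 19148 genes, 2% were recovered, whereas genes among the 31 with smaller changes passed. In the measured libraries 5456 of the 19148 tested genes passed in either direction. Recovery with that many changed genes was not tested.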

Other observations

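Fatty acid oxidation breaks fatty acids down to acetyl-CoA, mainly in mitochondria. The list was broader than this mitochondrial route and also held *Cpt1c*, *Acaa1a* and *Ppara*. *Cpt1c* was among the higher genes (log2 fold change 0.78), and *Acaa1a* and *Ppara* did not pass the test. Of 21 tested genes 9 were higher (42.9%, against 13.1% of all tested genes) and 0 lower in edgeR's test, with a median log2 fold change of 0.41. In the lower direction DESeq2's Wald test gave 1 gene, and 1 gene had an unadjusted p under 0.05 in edgeR's test. Both counts changed when single libraries were left out, and the lower count was largest without PD100 replicate 1. Those of all tested genes also moved between such fits. *Acadm*, the medium-chain acyl-CoA dehydrogenase, was at 61.1 and 79.7 CPM at PD100 and at 189 and 201 CPM at PD800 (log2 fold change 1.47, standard error 0.13, adjusted p = 0.000505, edgeR), but its 40 neighbours had a median of 1.18. *Slc25a20*, the carnitine carrier of the inner mitochondrial membrane, was at 20.0 and 22.6 CPM and then at 56.2 and 57.9 CPM (log2 fold change 1.42, standard error 0.09, adjusted p = 0.000147, edgeR), with neighbours at 0.05.

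The isoprenoid branch leaves the sterol route at farnesyl diphosphate. Of 14 tested genes 4 were higher (28.6%, against 13.1% of all tested genes) and 3 lower (21.4%, against 15.4%), with a median of 0.16. The higher count was smaller without either PD800 library, and both counts were larger without PD100 replicate 2. Those of all tested genes also moved between such fits. *Fntb*, a subunit of protein farnesyltransferase, was at 18.3 and 17.1 CPM and then at 32.4 and 33.4 CPM (log2 fold change 0.89, standard error 0.08, adjusted p = 0.000517, edgeR), with neighbours at 0.46. *Rabggtb*, a subunit of the enzyme that attaches geranylgeranyl groups to Rab proteins, had a log2 fold change of 0.81 ± 0.11 (SE, adjusted p = 0.00248, edgeR) beside neighbours at 1.21. *Pdss2* and *Nus1*, which build the polyprenyl chains of ubiquinone and dolichol, had log2 fold changes of -1.48 and -1.22 (adjusted p = 0.000564 and 0.000307, edgeR), and the neighbours of both were at -0.85. The partner subunits, added after their values were seen, were on the other side of 0 in each case. *Rabggta* was lower (-0.85 ± 0.08, SE, adjusted p = 0.000498, edgeR) and *Pdss1* higher (0.46 ± 0.08, SE, adjusted p = 0.00653, edgeR). *Fnta* was at -0.44 and *Dhdds* at 0.42 without passing (adjusted p = 0.0128 and 0.0276, edgeR). The neighbours of *Rabggta*, *Pdss1*, *Fnta* and *Dhdds* were at -0.34, -0.10, -0.55 and -0.13.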
